A study of Canis lupus familiaris with 10 samples.

Results

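The 5 mature miRNAs of the miR-23, miR-27 and miR-24 clusters, cfa-miR-23a, cfa-miR-23b, cfa-miR-24, cfa-miR-27a and cfa-miR-27b, were taken by name from the 320 canine miRNAs listed in a small RNA sequencing study of lymph node. All 5 were among the 247 miRNAs that passed the filter on low counts. Fresh frozen nodes of 6 dogs with diffuse large B-cell lymphoma (DLBCL, an aggressive tumor of mature B cells) were compared with nodes of 4 healthy dogs, with a separate library for each dog. The libraries were named DLBCL1 to DLBCL6 and Healthy2 to Healthy5, and no treatment, genotype or strain was labelled for either group. The dogs with DLBCL were hospital patients of several breeds and of both sexes, sampled by surgical biopsy, whereas the healthy dogs were young female hound crosses bred for research and euthanized in surgical teaching courses. Breed, origin and sampling therefore cannot be told apart from the diagnosis, and the healthy group held no males. No ages were given for the dogs with DLBCL, so that age cannot be told apart from the diagnosis either.

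These miRNAs are made as polycistrons, in which a single primary transcript carries a miR-23, a miR-27 and a miR-24 hairpin. Vertebrates have a miR-23a cluster (miR-23a, miR-27a and miR-24-2) and a paralogous miR-23b cluster (miR-23b, miR-27b and miR-24-1). In blood formation the miR-23a cluster is known as a target of the transcription factor PU.1 that favors myeloid over B-lymphoid fate. In B-cell lymphoma lines, MYC lowers miR-23a and miR-23b, which repress glutaminase, the enzyme that feeds glutamine into mitochondrial metabolism. The miR-27 pair is known for repressing FOXO1, a transcription factor of lymphocyte quiescence, and miR-24 for repressing the pro-apoptotic BIM and the DNA damage histone H2AX. Both clusters are also known from endothelium, where they act in vessel growth.

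In the RefSeq annotation of the dog assembly UU_Cfam_GSD_1.0, which differs from the build that the reads were mapped to, the 5 names matched 6 genes. MIR23B, MIR27B and MIR24-1 lay within 2000 bases of each other, inside the bounds of the protein-coding genes C1H9orf3 and FANCC. MIR23A, MIR27A and MIR24-2 lay within 2000 bases of each other on another chromosome, outside any annotated protein-coding gene. The nearest other miRNA gene of this second cluster was MIR181C. Mature miR-24 comes from a gene in each cluster, so that its reads cannot be assigned to either. The mature sequences of miR-23a and miR-23b are near-identical, as are those of miR-27a and miR-27b, and the split of reads within each pair is uncertain to that extent.

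Library depth ranged from 10686441 to 34709421 reads counted on miRNAs. Levels are given as CPM, the reads of a miRNA per 1000000 miRNA reads, on library sizes adjusted by the trimmed mean of M-values (TMM), which compensates for a few very abundant miRNAs. The TMM factors ran from 0.507 in Healthy2 to 2.03 in DLBCL6, while cfa-miR-148a alone took 17.9% to 39.0% of the miRNA reads in DLBCL and 51.5% to 73.6% in healthy nodes. DLBCL3 listed the fewest miRNAs above 0, 250. DLBCL1, DLBCL2, DLBCL3 and DLBCL5 had higher base quality (Q30) in the study's read statistics than the other 6 libraries, so that a higher Q30 was found in DLBCL alone. Changes are given as the log2 fold change of DLBCL over healthy from edgeR's quasi-likelihood test, and a differentially expressed miRNA (DEM) had a Benjamini-Hochberg adjusted p under 0.05 over all 247 miRNAs and an absolute log2 fold change over 1. In bulk tissue, fewer cells of a type and less RNA per cell cannot be told apart.

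The members spanned a wide range of abundance. By mean CPM, cfa-miR-27b was the most abundant member, followed by cfa-miR-24 and cfa-miR-27a, with at least 714 CPM in every library, whereas cfa-miR-23a and cfa-miR-23b stayed at or below 200.3 CPM. Among the 247 miRNAs, cfa-miR-27b ranked 17 in both groups, cfa-miR-24 ranked 31 in DLBCL and 25 in healthy nodes, and cfa-miR-27a ranked 36 and 27. The ranks of cfa-miR-23a were 102 in DLBCL and 86 in healthy nodes, and those of cfa-miR-23b were 121 and 104. Each read stands for a whole mature miRNA, so that CPM needs no length correction, although adapter ligation favors some sequences over others. Together the 5 members made up 0.920% to 4.02% of miRNA reads in DLBCL libraries and 0.573% to 1.27% in healthy libraries. On the TMM-adjusted scale their sum was 8707 to 19760 CPM in DLBCL, which enclosed the 9161 to 13870 CPM of the healthy libraries.

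None of the 5 members was a DEM by edgeR, against 14 of 247 miRNAs (5.67%) tested. At an unadjusted p under 0.05, 0 of the 5 members passed, compared with 26.7% of the 247 miRNAs. DESeq2 also called 0 of the 5 members as DEMs, against 14.4% of 306 miRNAs, as did limma-voom, against 18.6% of 247. The CPM ranges of the groups overlapped for all 5 members, whereas 13.0% of all miRNAs tested had groups that did not overlap.

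**Figure D1:**
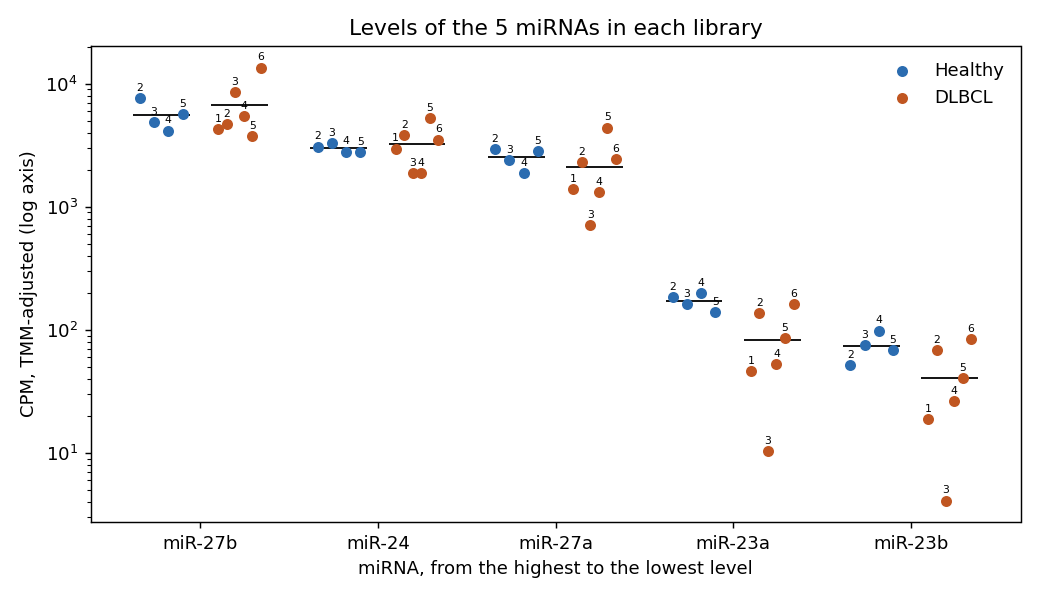
CPM on TMM-adjusted library sizes (log axis) of each member in the 6 DLBCL and 4 healthy libraries, with the dog's number in each point and a black line at the group mean. The healthy points of cfa-miR-23a lie between 140.4 and 200.3 CPM, and 5 of the 6 DLBCL points lie below them.

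cfa-miR-23a, the miR-23 of the miR-23a cluster, measured 185, 163, 200.3 and 140.4 CPM in Healthy2 to Healthy5. In DLBCL it ran from 10.4 CPM in DLBCL3 through a median of 69.6 to 161 in DLBCL6. DLBCL6 alone lay within the healthy range, and 5 of 6 DLBCL libraries lay below the lowest healthy library. DLBCL nodes averaged 82.4 ± 57.6 CPM (SD, n = 6), whereas healthy nodes averaged 172 ± 26.1 CPM (SD, n = 4). The log2 fold change was -1.06 (SE 0.59, 95% confidence interval -2.35 to 0.23, edgeR adjusted p = 0.254). The lowest value rested on 221 reads, so that counting error is small beside the spread between dogs.

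cfa-miR-23b, its paralog in the other cluster, measured 51.4, 75.0, 98.5 and 68.5 CPM in Healthy2 to Healthy5. In DLBCL it ran from 4.09 CPM, or 87 reads, in DLBCL3 through a median of 33.6 to 84.5 in DLBCL6. DLBCL2, at 68.4 CPM, and DLBCL6 lay within the healthy range, and the other 4 lay below it. The DLBCL mean was 40.5 ± 30.7 CPM (SD, n = 6) against 73.3 ± 19.5 CPM (SD, n = 4). The log2 fold change was -0.86 (SE 0.65, 95% confidence interval -2.27 to 0.55, edgeR adjusted p = 0.382).

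Both miR-23 levels stood lowest in DLBCL3, and both fold changes were smaller in size within the lower Q30 group. Without DLBCL3 the log2 fold changes were -0.81 for cfa-miR-23a and -0.60 for cfa-miR-23b. In the 4 DLBCL libraries of higher Q30, cfa-miR-23a ranged from 10.4 to 137 CPM. DLBCL4 and DLBCL6 had 53.0 and 161 CPM, so that the levels of the Q30 groups overlapped within DLBCL. Within the lower Q30 group, which left DLBCL4 and DLBCL6 beside all healthy nodes, the log2 fold changes were -0.69 for cfa-miR-23a and -0.41 for cfa-miR-23b. The part of base quality in the difference was not tested.

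cfa-miR-24, the member shared by both clusters, measured 3082, 3313, 2810.4 and 2783 CPM in Healthy2 to Healthy5. In DLBCL it ran from 1882 in DLBCL3 through a median of 3250.1 to 5293 in DLBCL5. The DLBCL libraries lay on both sides of the narrow healthy range, 2 below and 3 above. Healthy nodes averaged 2997 ± 250.0 CPM (SD, n = 4), compared with 3233 ± 1295 CPM (SD, n = 6) for DLBCL. Its log2 fold change was 0.11 (SE 0.36, 95% confidence interval -0.66 to 0.88, edgeR adjusted p = 0.861).

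cfa-miR-27a, the miR-27 of the miR-23a cluster, measured 2952, 2416, 1891 and 2824 CPM in Healthy2 to Healthy5. In DLBCL it ran from 714 CPM in DLBCL3 through a median of 1845 to 4403 in DLBCL5. DLBCL5 lay above the healthy range, 3 libraries lay below it and 2 within it. DLBCL averaged 2093 ± 1304 CPM (SD, n = 6) against 2521 ± 478 CPM (SD, n = 4), with a log2 fold change of -0.27 (SE 0.46, 95% confidence interval -1.26 to 0.72, edgeR adjusted p = 0.749). Leaving out DLBCL5 gave -0.63 and leaving out DLBCL3 gave -0.07, and the value within the lower Q30 group was -0.43.

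cfa-miR-27b, the miR-27 of the miR-23b cluster, measured 7600.05, 4909, 4161 and 5642 CPM in Healthy2 to Healthy5. In DLBCL it ran from 3758 in DLBCL5 through a median of 5099 to 13556 in DLBCL6. DLBCL6 and DLBCL3, the latter at 8552 CPM, lay above all healthy libraries, and DLBCL5 lay below them. DLBCL nodes averaged 6722 ± 3752 CPM (SD, n = 6), compared with 5578 ± 1477 CPM (SD, n = 4) for healthy nodes. The log2 fold change was 0.27 (SE 0.41, 95% confidence interval -0.62 to 1.16, edgeR adjusted p = 0.709). With the Q30 group as a covariate it was 0.77, and within the lower Q30 group it was 0.76.

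In DLBCL3 the miR-27 paralogs thus stood at opposite ends, with cfa-miR-27a the lowest and cfa-miR-27b the second highest of the 6 DLBCL libraries. In DLBCL5 the order was turned, with cfa-miR-27a the highest and cfa-miR-27b the lowest. With the reads of cfa-miR-27a and cfa-miR-27b summed before the fit, the log2 fold change was 0.13 (SE 0.35), and with those of cfa-miR-23a and cfa-miR-23b summed it was -1.01 (SE 0.59).

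**Figure D2:**
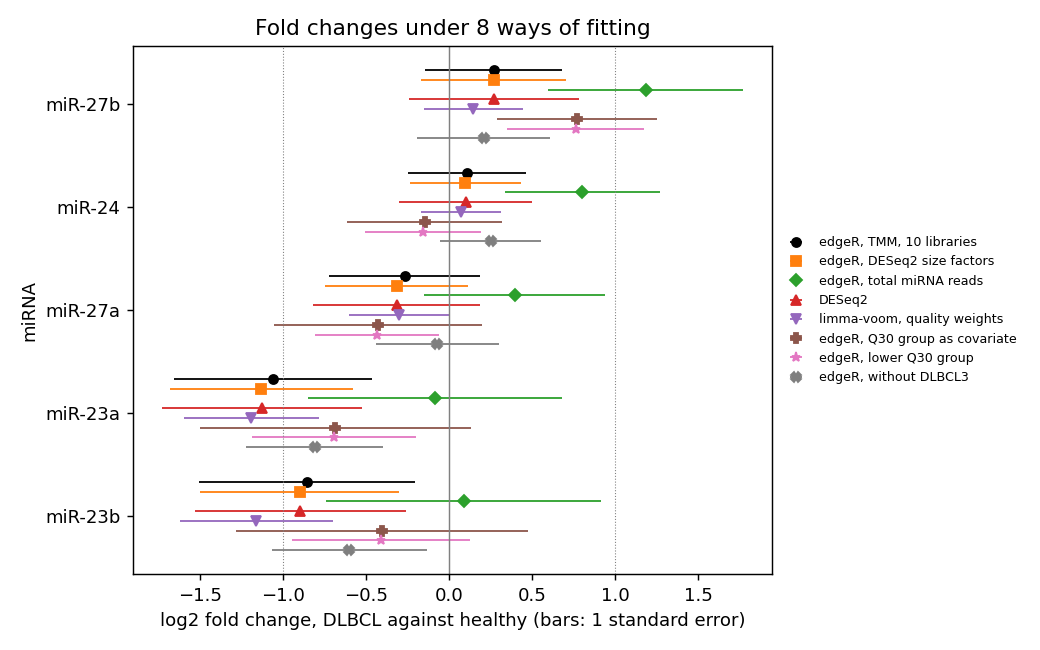
Log2 fold change (DLBCL over healthy) of each member in 8 fits, with bars of 1 SE and dotted lines at the DEM threshold of 1 in either direction. The points of cfa-miR-23a and cfa-miR-23b lie left of those of the other members in most fits, and the fit on total reads is shifted to the right for all 5.

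The direction of several members depended on the scaling. The median log2 fold change over all 247 miRNAs was 0.13 with TMM and 0.82 with total miRNA reads. With total reads, the log2 fold changes were -0.09 for cfa-miR-23a, 0.09 for cfa-miR-23b, 0.80 for cfa-miR-24, 0.40 for cfa-miR-27a and 1.19 for cfa-miR-27b. Relative to the median of all miRNAs, the differences were closer under both scalings. Those of cfa-miR-23a were -1.19 with TMM and -0.91 with total reads, and those of cfa-miR-23b were -0.99 and -0.73. On the same relative scale cfa-miR-24 was at -0.02 under both, cfa-miR-27a at -0.40 and -0.42, and cfa-miR-27b at 0.14 and 0.36. In limma-voom with sample quality weights, cfa-miR-23a had a log2 fold change of -1.19 (limma adjusted p = 0.0544) and cfa-miR-23b one of -1.16 (limma adjusted p = 0.0945).

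A ratio of 2 miRNAs within a library does not depend on the scaling. The 10 ratios between members were compared between the groups by a two-sided exact permutation test over the 10 libraries, with p-values adjusted over all 30381 pairs of the 247 miRNAs. Of the 10 ratios, 1 had an unadjusted exact p under 0.05, compared with 25.8% of all pairs, and none of the 30381 pairs had an adjusted p under 0.05.

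That ratio was cfa-miR-23a to cfa-miR-24. cfa-miR-24 exceeded cfa-miR-23a by 14.0-fold to 20.3-fold in healthy libraries (median 18.2-fold). In DLBCL libraries the excess was 21.9-fold to 181-fold (median 48.5-fold), and the groups did not overlap. The share of all pairs without overlap was not counted, so that this lack of overlap is not shown to be particular to the ratio. As log2 of cfa-miR-23a over cfa-miR-24, DLBCL averaged -5.64 ± 1.10 (SD, n = 6) and healthy nodes -4.13 ± 0.25 (SD, n = 4). The difference was -1.51, with an exact permutation p = 0.0238 and an adjusted p = 0.138 over all pairs. Leaving out any of the 10 libraries kept the unadjusted exact permutation p under 0.05, with differences from -1.75 to -1.14. The largest p, 0.0476, was reached without any 1 of the healthy libraries. As the ratio was singled out by its p in these same libraries, the repeats are no separate support. Within the lower Q30 group the difference was -0.67, and the part of base quality was not tested. DLBCL3, with a log2 ratio of -7.50, lay farthest from the healthy libraries, and DLBCL6, with -4.45, lay closest.

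**Figure D3:**
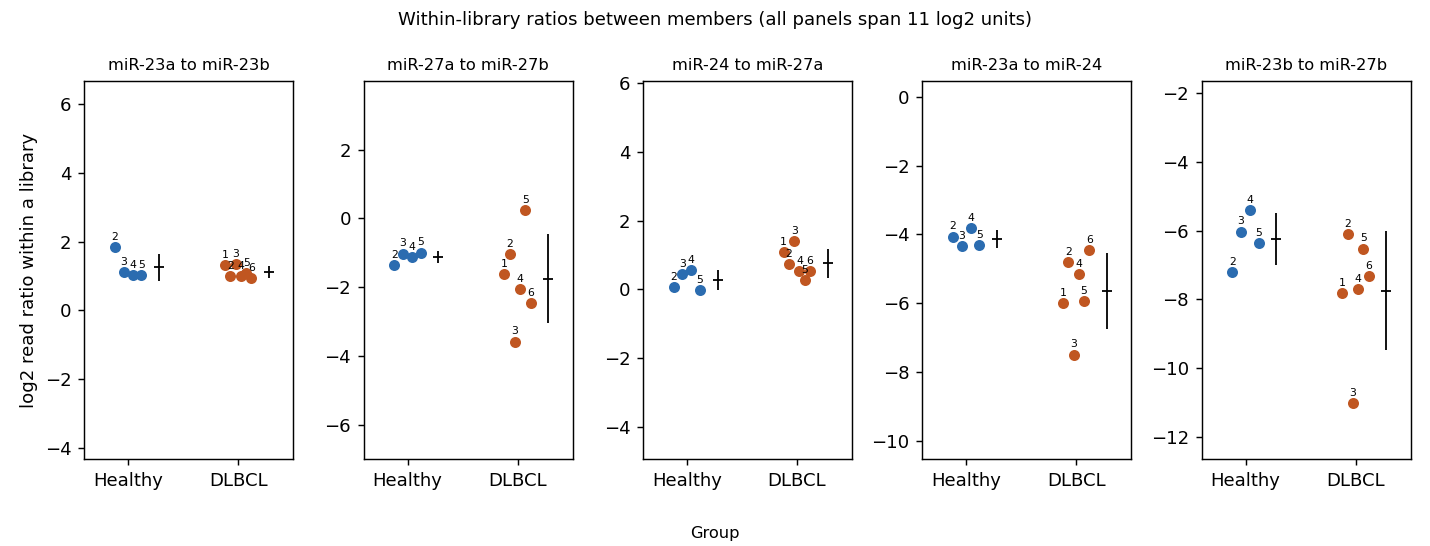
Log2 ratio of reads of 2 members within each library, for 5 of the 10 pairs, with the dog's number in each point and bars for the group mean ± SD. Each panel spans 11 log2 units, so that the tight cfa-miR-23a to cfa-miR-23b ratio and the spread of the miR-27 ratio in DLBCL can be compared by eye.

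The miR-23 paralogs, which belong to different clusters, kept a nearly constant ratio outside Healthy2. As their mature sequences are near-identical, the split of reads between them is uncertain, and its part in this ratio was not tested. cfa-miR-23a exceeded cfa-miR-23b in 10 of 10 libraries, by 3.59-fold in Healthy2 and by 1.91-fold to 2.53-fold in the other 9. The log2 ratio averaged 1.11 ± 0.17 (SD, n = 6) for DLBCL against 1.26 ± 0.40 (SD, n = 4) for healthy libraries, a difference of -0.14 (exact permutation p = 0.486, adjusted p = 0.662). In DLBCL3, where both were lowest, cfa-miR-23a still exceeded cfa-miR-23b by 2.53-fold.

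The miR-27 paralogs kept such a ratio among the healthy libraries but not among the DLBCL libraries. In Healthy2 to Healthy5, cfa-miR-27b exceeded cfa-miR-27a by 2.57-fold, 2.03-fold, 2.20-fold and 1.998-fold. In DLBCL1 to DLBCL6 the ratio of cfa-miR-27b to cfa-miR-27a was 3.06, 2.06, 11.98, 4.17, 0.854 and 5.56. DLBCL5 was the library with more cfa-miR-27a than cfa-miR-27b. As log2 of cfa-miR-27a over cfa-miR-27b, the means were -1.76 ± 1.30 (SD, n = 6) and -1.13 ± 0.17 (SD, n = 4), a difference of -0.63 (exact permutation p = 0.395, adjusted p = 0.585). That difference was -1.02 without DLBCL5 and -0.26 without DLBCL3, and -1.14 within the lower Q30 group. The SD was 7.77 times as large in DLBCL as in healthy nodes, and 3.72% of all pairs had a ratio of SDs at least as large. Of all pairs, 86.8% had a larger SD in DLBCL, and the median ratio of SDs was 1.97.

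Within the miR-23a cluster, cfa-miR-27a exceeded cfa-miR-23a by 9.44-fold to 20.1-fold in healthy libraries and by 15.1-fold to 68.5-fold in DLBCL libraries. The difference of the log2 ratio of cfa-miR-23a to cfa-miR-27a was -1.02 (exact permutation p = 0.0714, adjusted p = 0.226). Within the miR-23b cluster, cfa-miR-27b exceeded cfa-miR-23b by 42.3-fold to 148-fold in healthy libraries and by 69.1-fold in DLBCL2 to 2077-fold in DLBCL3. The difference of the log2 ratio of cfa-miR-23b to cfa-miR-27b was -1.50 (exact permutation p = 0.119, adjusted p = 0.294). Both ratios had a larger SD in DLBCL than in healthy nodes, and neither differed between the groups at an exact p under 0.05.

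The remaining 5 ratios had exact permutation p-values from 0.0667 to 0.819. The log2 ratio of cfa-miR-23a to cfa-miR-27b differed by -1.64 (exact permutation p = 0.0714), and that of cfa-miR-23b to cfa-miR-24 by -1.37 (exact permutation p = 0.0667). The log2 ratio of cfa-miR-23b to cfa-miR-27a differed by -0.87 (exact permutation p = 0.167). For cfa-miR-24 the difference was 0.49 against cfa-miR-27a (exact permutation p = 0.0905) and -0.13 against cfa-miR-27b (exact permutation p = 0.819). The lower Q30 group is too small for an exact p under 0.05. Within it, every difference lay less than the DLBCL SD of its ratio from the value over all 10 libraries. The difference was -1.55 for cfa-miR-23a to cfa-miR-27b and -1.26 for cfa-miR-23b to cfa-miR-27b. In the same group it was -0.29 for cfa-miR-23a to cfa-miR-23b, -0.41 for cfa-miR-23a to cfa-miR-27a, -0.38 for cfa-miR-23b to cfa-miR-24, -0.12 for cfa-miR-23b to cfa-miR-27a, 0.26 for cfa-miR-24 to cfa-miR-27a and -0.88 for cfa-miR-24 to cfa-miR-27b.

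The order of the levels was cfa-miR-27b, cfa-miR-24, cfa-miR-27a, cfa-miR-23a and cfa-miR-23b. cfa-miR-27b exceeded cfa-miR-24 in 9 of 10 libraries, with DLBCL5 as the exception, but in DLBCL the mean log2 ratio of cfa-miR-24 to cfa-miR-27b, -0.998, was smaller in size than its SD of 1.05. cfa-miR-24 exceeded cfa-miR-27a in 9 of 10 libraries, with Healthy5 as the exception, and in healthy nodes their mean log2 ratio of 0.27 was smaller than its SD of 0.29. The steps from cfa-miR-27a to cfa-miR-23a and from cfa-miR-23a to cfa-miR-23b held in 10 of 10 libraries, and both were larger than their SD in each group.

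All 5 members varied more among DLBCL than among healthy libraries. The SD of log2 CPM was 1.43 in DLBCL and 0.22 in healthy nodes for cfa-miR-23a, and 1.57 and 0.39 for cfa-miR-23b. It was 0.59 and 0.12 for cfa-miR-24, 0.91 and 0.29 for cfa-miR-27a, and 0.70 and 0.37 for cfa-miR-27b. A larger SD in DLBCL was the rule for 87.0% of the 247 miRNAs, with a median SD of 1.07 in DLBCL and 0.54 in healthy nodes. The miR-23 pair thus lay above the DLBCL median and the other 3 members below it.

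To find the miRNAs with the most similar pattern, the SD over the 10 libraries of the within-library log2 ratio to each member was computed for all other 246 miRNAs, where a small SD marks a close pattern. These SDs are descriptions over libraries that differ in depth and diagnosis. cfa-miR-23a and cfa-miR-23b, whose split of reads is uncertain, were each other's closest miRNA, with an SD of 0.27. The next for cfa-miR-23a were cfa-miR-214 (SD 0.51), cfa-miR-3958 (SD 0.53) and cfa-miR-199 (SD 0.54), against a median of 1.56 over the other miRNAs. For cfa-miR-23b they were cfa-miR-214 (SD 0.54) and cfa-miR-326 (SD 0.55), against a median of 1.59. miR-214 and miR-199 are known from fibroblasts and other mesenchymal cells.

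The members of a cluster were less alike than the miR-23 paralogs. For cfa-miR-23a, its cluster partner cfa-miR-27a ranked 22 of 246 (SD 0.87). For cfa-miR-23b, its cluster partner cfa-miR-27b ranked 121 of 246 (SD 1.57), close to the median miRNA. cfa-miR-27a and cfa-miR-27b, which share a seed but not a cluster, had an SD of 1.02.

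cfa-miR-24 and cfa-miR-27a were close to each other (SD 0.44). The miRNAs closest to cfa-miR-24 were cfa-miR-21 (SD 0.32), cfa-miR-149 (SD 0.37) and cfa-miR-22 (SD 0.38). Those closest to cfa-miR-27a were cfa-miR-193a (SD 0.35), cfa-miR-24 and cfa-miR-22 (SD 0.44). cfa-miR-27b was closest to cfa-miR-101 (SD 0.56), cfa-miR-362 (SD 0.58) and cfa-miR-140 (SD 0.60), and the nearest other member, cfa-miR-24, ranked 36 (SD 0.81).

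**Figure D4:**
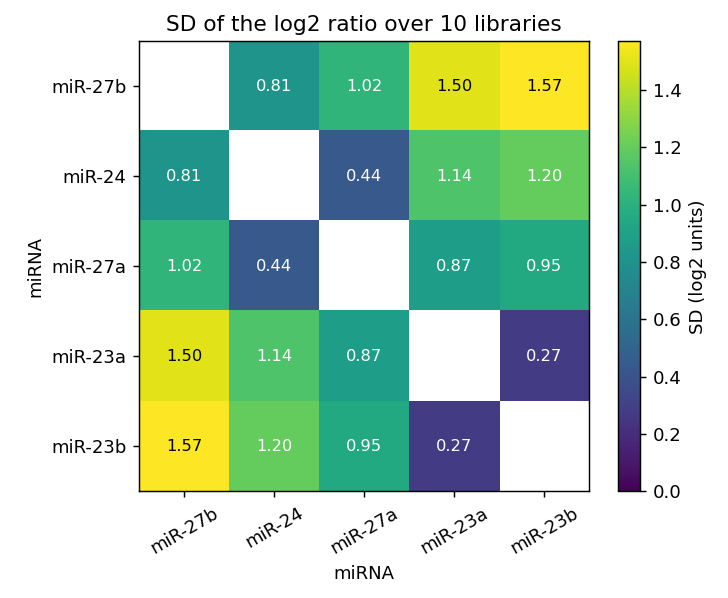
SD over the 10 libraries of the within-library log2 ratio of reads for each pair of members, where a smaller value marks a closer pattern. cfa-miR-23a and cfa-miR-23b form the closest pair at 0.27, cfa-miR-24 and cfa-miR-27a follow at 0.44, and cfa-miR-23b and cfa-miR-27b are farthest apart at 1.57.

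The 5 listed markers of stroma and vessels were set beside the miR-23 pair. Not all of them were close to it: for cfa-miR-23a, cfa-miR-214 and cfa-miR-199 ranked 2 and 4 of 246, whereas cfa-miR-145 ranked 28 (SD 0.91), cfa-miR-126 ranked 37 (SD 0.99) and cfa-miR-143 ranked 57 (SD 1.18), behind cfa-miR-24 at 53. cfa-miR-181d and cfa-miR-30a, which are not on that list, ranked 7 and 8 for cfa-miR-23a. All 5 markers of stroma and vessels were tested and 0 were DEMs by edgeR, against 5.67% of all miRNAs. With TMM all 5 had negative log2 fold changes, as did 44.5% of the 247 miRNAs, with a median of -0.74 against 0.13. With total reads 1 of the 5 was negative, as were 19.8% of all miRNAs, with a median of 0.15 against 0.82. With TMM, cfa-miR-126, the defining miRNA of endothelium, had a log2 fold change of -1.08, cfa-miR-199 had -0.90, cfa-miR-214 had -0.74, cfa-miR-145 of smooth muscle had -0.30 and its cluster partner cfa-miR-143 had -0.07. Their summed level was 18867 to 70627 CPM in DLBCL and 26911 to 55304 CPM in healthy nodes, and none of the defining markers was at 0 in any library.

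DLBCL3, lowest in cfa-miR-23a and cfa-miR-23b, was also lowest in cfa-miR-214 (9.70 CPM, against 29.4 to 98.4 in the other 9 libraries) and in cfa-miR-199 (239 CPM, against 988 to 4053). It was lowest in cfa-miR-126 as well, with 8.85 CPM against 31.9 to 399 in the others. DLBCL3 was also the lowest of all libraries in miRNAs not listed for stroma and vessels, such as cfa-miR-30a (1249 CPM), cfa-miR-146a (1695) and cfa-miR-22 (90.8). In others, such as cfa-let-7f (110670), it was the highest. The share of all miRNAs that were lowest in DLBCL3 was not counted. DLBCL6, highest in the miR-23 pair among DLBCL libraries, was highest among them in cfa-miR-199 (3027 CPM) and cfa-miR-126 (186 CPM) but not in the other 3 markers. In DLBCL, cfa-miR-214 was highest in DLBCL2 (90.9 CPM, against 88.6 in DLBCL6), cfa-miR-145 in DLBCL4 (1205 against 579) and cfa-miR-143 in DLBCL5 (69211 against 27890), and cfa-miR-143 was lowest in DLBCL4 (15649) rather than DLBCL3. The part of stromal and vessel content in the miR-23 levels was not tested.

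**Figure D5:**
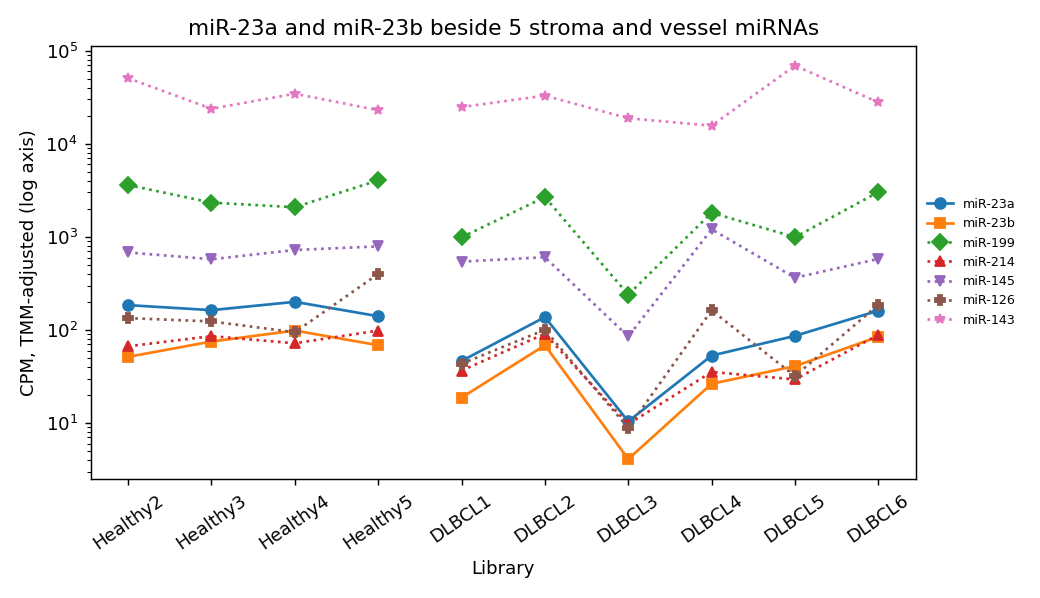
CPM (log axis) of cfa-miR-23a and cfa-miR-23b and of 5 miRNAs of stroma and vessels in each library, with lines broken between DLBCL and healthy libraries. The miR-23 pair, cfa-miR-199, cfa-miR-214, cfa-miR-126 and cfa-miR-145 have their lowest point in DLBCL3.

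Markers of other cell types did not all lie to the same side. The miRNAs of mature resting lymphocytes had a median log2 fold change of -1.87, and 1 of 2, cfa-miR-150, was a DEM at -2.97, though not without Healthy4. Their summed level was 615 to 1802 CPM in DLBCL and 3503 to 15356 CPM in healthy nodes. The myeloid cfa-miR-223 had a log2 fold change of 0.09, with 3.95 to 88.3 CPM in DLBCL and 16.9 to 38.6 CPM in healthy nodes. Of the 4 red blood cell miRNAs, 3 rose as DEMs, cfa-miR-451, cfa-miR-486 and cfa-miR-486-3p, with a median of 4.70 over the 4. Of all 247 miRNAs, 9 rose as DEMs. The median of the 4 was 3.12 without DLBCL3, where cfa-miR-486 stood at 17490 CPM, and 2.45 with the Q30 group as a covariate. The levels of cfa-miR-486 and cfa-miR-486-3p were nearly the same in every library (ratio 1.0009 to 1.0458), so that they are not separate markers. Without cfa-miR-486-3p the summed level was 5171 to 35567 CPM in DLBCL and 808 to 1071 CPM in healthy nodes. Only cfa-miR-451 of the list was a DEM with DESeq2's size factors in place of TMM or with the Q30 group as a covariate. The same held without DLBCL1, Healthy2, Healthy3 or Healthy4. cfa-miR-142, which blood cells express in general, had a log2 fold change of 0.22. The part of cell composition in the levels of the 5 members was not tested.

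As MYC is known to lower miR-23a and miR-23b, 24 other miRNAs described as lowered by MYC in B-cell lymphoma were counted. All 24 were tested. Of these, 2 fell as DEMs, cfa-miR-150 and the NF-kB feedback miRNA cfa-miR-146a (-1.46), and 1 rose, the p53 target cfa-miR-34a (4.0). Of all 247 miRNAs, 5 fell and 9 rose as DEMs. With TMM the log2 fold changes were negative for 14 of the 24 and positive for 10, with a median of -0.11, whereas of all 247 miRNAs 110 were negative and 137 positive, with a median of 0.13. With total reads 3 of the 24 were negative and 21 positive, with a median of 0.61, whereas of all 247 miRNAs 49 were negative and 198 positive, with a median of 0.82. Under that scaling cfa-miR-146a was not a DEM (-0.80) and cfa-miR-30d was (1.88, edgeR adjusted p = 0.00903). By DESeq2 and by limma-voom, cfa-miR-29c of the list rose as a DEM as well. With DESeq2's size factors in edgeR, cfa-miR-34a was not a DEM. Neither cfa-miR-34a nor cfa-miR-146a was a DEM without DLBCL1, without DLBCL6 or without any 1 of the healthy libraries. Nor was cfa-miR-150 a DEM without Healthy4, although it was one without any other single library. In DLBCL3, cfa-miR-34a stood at 4.05 CPM, below every healthy library. MYC itself was not measured.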

How the data were processed

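Small RNA of 10 lymph nodes was sequenced from libraries made with a kit for Illumina sequencing. The authors cleaned the reads, mapped them with Bowtie (version 0.12.9 in the submitters' processing notes, which also name the build CanFam3.1), left out reads of repeats and of other kinds of small RNA, and counted reads on miRBase miRNAs with miRDeep2. They deposited whole-number read counts of 320 miRNAs, not normalized. TPM values, deposited beside them, were checked against counts per 1000000 listed miRNA reads and differed by no more than 4.55e-05. The miRNA names carry mostly no arm and were used as given.

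Counts were analysed with edgeR 4.0.16 in R 4.3.3 (TMM, default filter by group, quasi-likelihood test, Benjamini-Hochberg over 247 miRNAs). CPM on the log2 scale had a prior count of 2, and ratios had 0.5 reads added to each count. The study used DESeq2 with the same DEM thresholds, and DESeq2 1.42.0 and limma 3.58.1 (voom) were run as alternatives. Ratios were tested with two-sided exact permutation in Python 3.11.15 with numpy 2.4.6. Groups of 6 and 4 libraries cannot reach an exact p below 0.00476. Other alternatives were other scalings and filters, the Q30 group, the replicate number and leaving out each library.

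The members, the marker lists and the MYC list were chosen with earlier results of these data known. The text names the members, for each member the 3 miRNAs of most similar pattern, the defining markers and the DEMs of the lists, and neighbouring miRNA genes. The other markers of stroma and vessels, the markers listed alone for a cell type, cfa-miR-30d and the scaling miRNA cfa-miR-148a were named after their values were seen. So were cfa-let-7f, cfa-miR-29c, cfa-miR-30a and cfa-miR-181d, and the other miRNAs set beside DLBCL3. The annotation was used for names and neighbours only.

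Libraries of a group differed by far more than sampling noise (chi-squared per degree of freedom at least 2115). This check could only find libraries copied or split from another, and it found none. Each library was kept as a separate dog because the study describes them so. The biological coefficient of variation was 0.731. On counts simulated for this comparison with 247 miRNAs, edgeR recovered 8.67%, 31.6% and 87.2% of miRNAs changed by a log2 fold change of 1.5, 2 and 3, and made 0 calls with none changed. The simulation gave both groups the same dispersion, whereas the DLBCL libraries varied more than the healthy ones. Its rates therefore need not hold for these groups, and a change as small as that of cfa-miR-23a was not simulated.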

Additional observations from a re-analysis of the deposited data

Results flagged for a closer look

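Levels and within-library ratios of the members were screened in each group for a library far from the others of its group, as the gap to the nearest library divided by the range of the group. Of 30 groups of values, 3 passed the critical value, and chance alone passes about 1 group in 20. Both values in DLBCL were from DLBCL3. Its log2 ratio of cfa-miR-23a to cfa-miR-27b was -9.68, with a gap of 0.654 of the range of the 6 libraries, and its log2 ratio of cfa-miR-23b to cfa-miR-27b was -11.02, with a gap of 0.65. These ratios share cfa-miR-27b, and the miR-23 pair moved together, so that they are not independent. The third was Healthy2, whose log2 ratio of cfa-miR-23a to cfa-miR-23b was 1.846, with a gap of 0.884 of the range of the 4 healthy libraries.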

How the results depend on the processing

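No alternative made any of the 5 members a DEM, and 97 of 109 alternative fold changes kept their direction. The log2 fold change of cfa-miR-23a was negative under every alternative run. With total reads, cfa-miR-23b turned to 0.0877 and cfa-miR-27a to 0.40, and cfa-miR-27a and cfa-miR-27b summed gave 0.13. cfa-miR-24 turned to -0.03 without cfa-miR-148a in the totals, -0.10 under a minimum of 10 reads per library, -0.15 with Q30 as a covariate and -0.16 among the libraries of lower Q30. Over the left-out libraries it ran from -0.0881 to 0.26, turning without DLBCL5 or Healthy5 (-0.0166), and cfa-miR-27b ran from -0.0337 without DLBCL6 to 0.43, while cfa-miR-27a ran from -0.63 to -0.07. Adjusted p-values over the alternatives ran from 0.0544 to 0.947 for cfa-miR-23a, 0.0945 to 0.948 for cfa-miR-23b, 0.24 to 0.987 for cfa-miR-24, 0.332 to 0.922 for cfa-miR-27a and 0.172 to 0.987 for cfa-miR-27b. With the authors' TPM, healthy means were 130 for cfa-miR-23a, 2335 for cfa-miR-24 and 1988 for cfa-miR-27a. The 14 DEMs (9 higher, 5 lower) became 8 with DESeq2's size factors, 23 with total reads (22 higher, 1 lower), 44 with DESeq2, 46 with limma-voom, 7 with Q30 as a covariate, 46 among libraries of lower Q30 and 1 to 23 without single libraries. The causes were not tested.

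For the ratios, leaving out single libraries gave differences of -0.22 to 0.0516 for cfa-miR-23a to cfa-miR-23b (turned without Healthy2), -1.21 to -0.77 for cfa-miR-23a to cfa-miR-27a (exact p under 0.05 without DLBCL2 or DLBCL6), -1.95 to -1.04 for cfa-miR-23a to cfa-miR-27b (without DLBCL2 or DLBCL5), -1.64 to -0.95 for cfa-miR-23b to cfa-miR-24 (without DLBCL6), -1.83 to -0.85 for cfa-miR-23b to cfa-miR-27b (without DLBCL2), 0.36 to 0.59 for cfa-miR-24 to cfa-miR-27a (without DLBCL5) and -0.43 to 0.10 for cfa-miR-24 to cfa-miR-27b (turned without DLBCL3 or DLBCL6). The range was -1.11 to -0.58 for cfa-miR-23b to cfa-miR-27a and -1.02 to -0.26 for cfa-miR-27a to cfa-miR-27b.

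The replicate numbers 2 to 5 occur in both groups but did not pair the libraries. The correlations of same-numbered deviations were 0.264, -0.009, -0.302 and -0.332, and 2 of 8 libraries correlated best with their own number. With the replicate number as a block, the log2 fold change was -1.69 for cfa-miR-23a, -1.54 for cfa-miR-23b, -0.0337 for cfa-miR-24, -0.49 for cfa-miR-27a and -0.017 for cfa-miR-27b, and 1 miRNA was a DEM with and without the block on those 8 libraries, a fit added after seeing the data.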
